A study of Mus musculus with 6 samples.

Results

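Lipid droplets are the stores of triglyceride and cholesteryl ester inside cells. Their surface carries perilipins, which guard the stored lipid, and CIDE proteins, which join droplets or move lipid between them. Adipose triglyceride lipase, encoded by Pnpla2, starts the breakdown of the stored triglyceride, and G0s2 is its inhibitor. In liver these proteins set how much fat is held in the hepatocyte and how much is released for oxidation or for secretion in lipoprotein particles.

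Genes of the droplet coat and of lipolysis were examined in liver, 10 in all: Plin2, Plin3, Plin4, Plin5, Cidea, Cideb, Cidec, G0s2, Pnpla2 and Pnpla3. They were read from all the non-control probes of the array that matched these 10 symbols, 13 of 39429 probes, and each probe was kept separate. The array held probes for 20659 genes with a symbol. The livers came from mice labelled Sec15 KO and from WT mice. The Sec15 protein belongs to the exocyst, which tethers secretory vesicles at the plasma membrane. All mice were untreated males aged 6 weeks, with 3 arrays in each group, and total RNA was hybridised to one-colour (Cy3) oligonucleotide arrays. The strain, the promoter of any Cre and which of the 2 Sec15 genes was deleted are not given in the sources used here.

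Levels are log2 signal minus the 75th percentile of the same array, so 0 is the level of that percentile and not the absence of signal. Since the labels give replicate numbers but not the animals behind them, a p-value here reflects sample-to-sample spread alone, part of which may be technical. By scan time in the file headers, KO replicates 1 and 3 were taken to share slide 2, and KO replicate 2 and the 3 WT arrays slide 1. KO replicate 2 therefore gives the only difference within a slide, and this value is given beside each result on the 10 genes. A fit with the slide as a block has this same difference as its estimate, so it rests on that 1 KO array. KO replicates 1 and 3 add only to the spread used in its p-value, and the 2 are not separate checks. KO replicates 1 and 3 were the closest pair of KO arrays, with a SD of log2 differences of 0.34, against 0.68 and 0.62 for the pairs with replicate 2. Among WT arrays the SD was 0.51 for replicates 1 and 2, whose deposited names share a number, 0.39 for 1 and 3, and 0.35 for 2 and 3. Between 64.8% and 65.4% of probes were well above background on KO arrays and between 67.3% and 70.3% on WT arrays. The single Exoc6 probe was well above background on no KO array and on 1 WT array. Of the 2 Exoc6b probes, A_55_P1997415 averaged 0.02 in KO and 0.54 in WT livers (limma adjusted p = 0.0436), and the other was well above background on no array. The 10 hepatocyte markers were well above background on all 6 arrays. In whole liver, fewer cells of a type and less RNA per cell cannot be told apart.

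Of the 13 probes, 10 probes of 8 genes passed the filter of a signal well above background on at least 3 of 6 arrays, and these 10 were well above background on every array. The single Cidea probe and both Pnpla3 probes were well above background on no array. In KO liver, Plin4, Plin5, Pnpla2 and 1 of 2 Cidec probes rose, and G0s2 and 1 of 2 Cideb probes fell. Plin2, Plin3 and the other probes of Cidec and Cideb did not pass the test (limma with Benjamini-Hochberg adjustment over 27057 probes, threshold 0.05). The 4 higher calls stand beside 17% of all tested probes called higher, and the 2 lower calls beside 11.6% called lower. In either direction 60% of the 10 probes were called, against 28.6% of all probes. All 3 KO arrays lay above all WT arrays for 5 of the 10 probes and below them for 2, against 30.6% and 19.6% of all tested probes, or 50.2% in either direction. The median log2 difference of the 10 probes was 0.39, against 0.08 over all tested probes. None of the 6 calls held without WT replicate 3, and 2 held without KO replicate 3. Of all tested probes, 1.31% were called without WT replicate 3 and 3.69% without KO replicate 3.

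**Figure D1:**
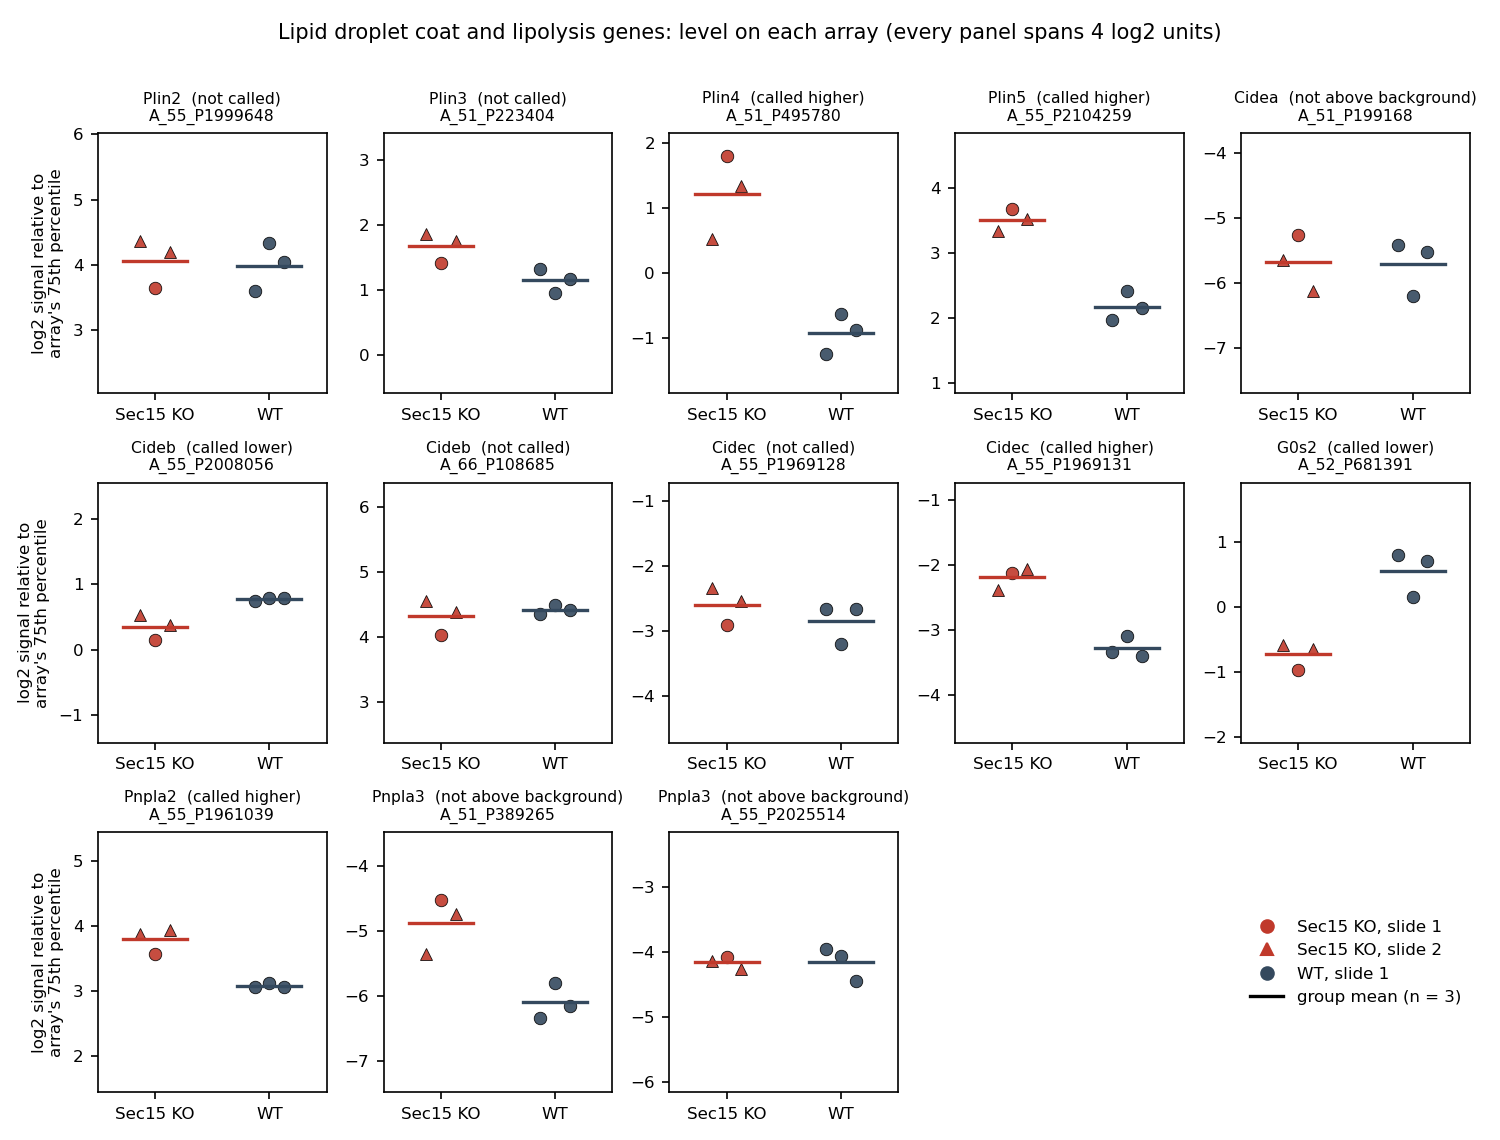
Level of each of the 13 probes on each array, as log2 signal relative to the array's 75th percentile, with Sec15 KO left of WT, bars at group means (n = 3) and triangles for the KO arrays on slide 2; every panel spans 4 log2 units. Among the 10 tested probes the KO points lie above all WT points for Plin3, Plin4, Plin5, Pnpla2 and Cidec probe A_55_P1969131, and below them for G0s2 and Cideb probe A_55_P2008056.

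The perilipins were examined first. Plin4, a perilipin found on adipocyte droplets and also in muscle and liver, read 0.52, 1.80 and 1.34 in KO replicates 1, 2 and 3, against -1.24, -0.63 and -0.88 in WT replicates 1, 2 and 3 (probe A_51_P495780). The lowest KO array lay 1.15 above the highest WT array on the log2 scale, and the KO arrays were the more spread of the 2 groups. The level averaged 1.22 ± 0.65 in KO and -0.92 ± 0.31 in WT livers (mean ± SD, n = 3 each). The log2 difference was 2.14 (SE 0.35, 95% interval 1.29 to 2.99), a 4.40-fold rise with a limma adjusted p of 0.0126. It was the largest change of the 10 probes and stood at rank 479 by size among all 27057. Within slide 1 the difference was 2.72, and with the slide as a block the adjusted p was 0.0298. The call was lost without KO replicate 3 (adjusted p = 0.0593) and without WT replicate 3 (adjusted p = 0.0625).

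Plin5, the perilipin of oxidative tissues that tethers droplets to mitochondria, read 3.35, 3.68 and 3.52 in KO replicates 1, 2 and 3, against 1.97, 2.43 and 2.15 in the WT replicates (probe A_55_P2104259). All KO arrays were higher than all WT arrays, by at least 0.92 on the log2 scale. The averages were 3.52 ± 0.17 in KO and 2.18 ± 0.23 in WT livers (mean ± SD, n = 3 each). The rise was 2.52-fold (SE 0.16 on the log2 scale, 95% interval 0.95 to 1.72, limma adjusted p = 0.00731). KO replicate 2 alone exceeded the WT mean by 1.50 within slide 1, and the slide block gave an adjusted p of 0.0287. Without WT replicate 3 the adjusted p was 0.0508.

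Plin4 and Plin5 are neighbouring genes in the RefSeq table, so the stretches before their starts are shown together. Each is the 250 bases before an annotated start, from RefSeq on GRCm38.p6, on the minus strand: chr17:56109783-56110032 for Plin4 and chr17:56117549-56117798 for Plin5. Capitals mark the TATA-like letters TATAAG, the CCAAT box, the GC box GGGCGG and the nuclear receptor half-site AGGTCA, each searched on both strands and written as it reads on the strand shown.
Plin4: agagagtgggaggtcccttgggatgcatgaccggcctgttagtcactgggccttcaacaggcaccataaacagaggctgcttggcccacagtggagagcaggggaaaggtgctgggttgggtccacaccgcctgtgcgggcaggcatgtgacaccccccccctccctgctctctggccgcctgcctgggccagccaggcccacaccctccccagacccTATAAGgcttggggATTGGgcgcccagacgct
Plin5: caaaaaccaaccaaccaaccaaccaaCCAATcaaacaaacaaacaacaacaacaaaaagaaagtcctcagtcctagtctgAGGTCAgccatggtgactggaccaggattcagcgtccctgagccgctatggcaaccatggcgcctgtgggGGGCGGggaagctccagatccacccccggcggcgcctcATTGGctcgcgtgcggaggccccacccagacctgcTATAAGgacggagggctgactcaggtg
Both windows shown hold TATAAG, 32 bases before the Plin4 start and 27 before the Plin5 start, counted from the motif's first base. RefSeq gives Plin5 a second start, whose window is not shown and holds GGGCGG 239 and 53 bases before it, with neither TATAAG nor AGGTCA. This motif is in 6.65% of the 32851 such windows of the mouse table and in 2 of the 11 windows of the 10 genes, of which 9 genes had an entry and Cidea none. The half-site AGGTCA stands 170 bases before the Plin5 start and is not in the Plin4 window shown. The half-site is in 14% of all windows, on either strand, and in 2 of the 11. The other of these is the Plin2 window, 218 bases before the start. The forkhead letters TGTTTAC are in 3.17% of all windows and in none of the 11, and the E-box CACGTG is in 6.02% of all windows and in none of the 11. A match is a description of the letters, and its absence says nothing of binding outside these windows.

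Plin2, the perilipin that coats most hepatocyte droplets, read 4.35, 3.63 and 4.19 in KO livers, against 3.59, 4.33 and 4.03 in WT livers (replicates 1, 2 and 3 of each, probe A_55_P1999648). The groups overlapped over nearly their whole range. The log2 difference was 0.07 (SE 0.26) with a 95% interval of -0.57 to 0.71 and a limma adjusted p of 0.845. A change in either direction within that interval is therefore compatible with these arrays. Within slide 1 the difference was -0.35. The direction for Plin2 turned under 7 of 19 alternative settings.

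Plin3, a broadly expressed perilipin that moves onto new droplets, read 1.86, 1.42 and 1.76 in KO livers, against 1.32, 0.95 and 1.17 in WT livers (probe A_51_P223404). The KO arrays were above the WT arrays, the closest pair 0.09 apart. The log2 difference of 0.53 (SE 0.16, 95% interval 0.13 to 0.93) missed the threshold at a limma adjusted p of 0.0563. It passed under 6 of 19 alternatives, with the highest of these p-values 0.0478 under median centring, and was 0.27 within slide 1. Plin1, the perilipin of adipocytes, was counted with the droplet surface genes and not among the 10, and its probe was well above background on 1 KO and 2 WT arrays.

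**Figure D2:**
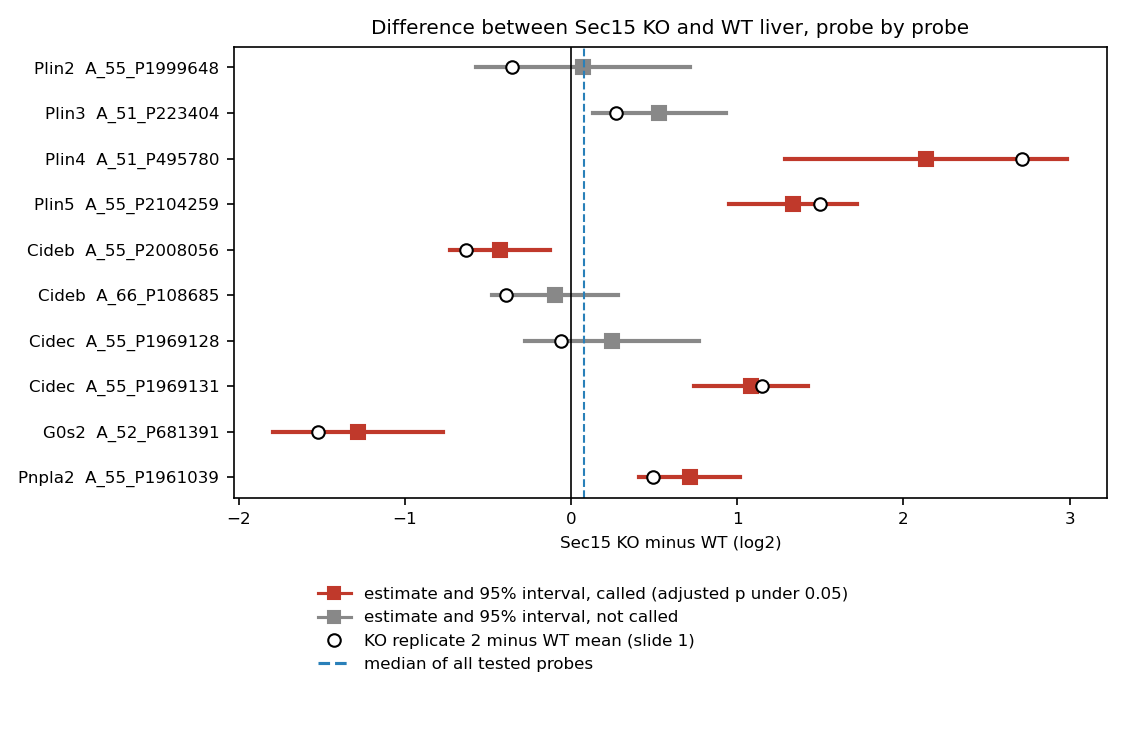
Sec15 KO minus WT on the log2 scale for the 10 tested probes, with 95% intervals (red where the adjusted p was under 0.05), open circles for KO replicate 2 minus the WT mean within slide 1, and a dashed line at the median of all tested probes, 0.08. Plin4 has the largest rise at 2.14 and G0s2 the largest fall at -1.28.

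The CIDE genes gave different values by probe. Cidec, which fuses droplets into larger ones and is low in lean liver, had 2 probes. Probe A_55_P1969131 read -2.38, -2.12 and -2.06 in KO livers, against -3.34, -3.08 and -3.40 in WT livers. The KO arrays lay above the WT arrays by at least 0.70 on the log2 scale, and the level averaged -2.19 ± 0.17 in KO and -3.27 ± 0.17 in WT livers (mean ± SD, n = 3 each). The rise was 2.12-fold (log2 difference 1.08, SE 0.14, 95% interval 0.74 to 1.43, limma adjusted p = 0.00841), with 1.15 within slide 1 and an adjusted p of 0.0377 under the slide block. With normexp background correction its size was 0.51, and without WT replicate 3 its adjusted p was 0.0542.

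The other Cidec probe, A_55_P1969128, read -2.33, -2.90 and -2.54 in KO livers, against -2.66, -3.20 and -2.66 in WT livers. The groups overlapped, and the log2 difference was 0.25 (SE 0.21, 95% interval -0.28 to 0.77, adjusted p = 0.401). Within slide 1 it was -0.06, on the other side of 0. The change of the first probe exceeded that of the second by 0.84 on the log2 scale, a difference that did not pass an exact two-sided permutation test (p = 0.2). This comparison and that of the Cideb probes below were chosen after their values were seen, and their p-values are not adjusted over the 2. The smallest p that 3 against 3 arrays allows is 0.1. The files do not say which part of the transcript each probe measures.

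Cideb, the hepatocyte member of the family, which takes part in lipoprotein loading, also had 2 probes. Probe A_55_P2008056 read 0.53, 0.15 and 0.38 in KO livers, against 0.75, 0.79 and 0.80 in WT livers. All KO arrays were lower, by at least 0.22, and KO replicate 2 was lowest. The level averaged 0.35 ± 0.19 in KO and 0.78 ± 0.03 in WT livers (mean ± SD, n = 3 each), a 1.34-fold fall (log2 difference -0.43, SE 0.12, limma adjusted p = 0.0475). Within slide 1 the difference was -0.63, and the slide block gave an adjusted p of 0.0396. The call was lost under 11 of 18 alternatives, median centring (adjusted p = 0.188) and the average of WT replicates 1 and 2 (0.0804) among them, and with any array other than KO replicate 2 left out.

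The other Cideb probe, A_66_P108685, read 4.56, 4.03 and 4.39 in KO livers, against 4.36, 4.49 and 4.42 in WT livers. The groups overlapped, and the log2 difference was -0.10 (SE 0.15, 95% interval -0.47 to 0.28, adjusted p = 0.649), with -0.39 within slide 1. The change of probe A_55_P2008056 was lower than that of this probe by a log2 difference of -0.33 (exact two-sided permutation p = 0.1). Cidea, the family member of brown fat that also appears in fatty liver, had a single probe, A_51_P199168, that was not well above background on any array. No fold is given for it.

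The lipase and its inhibitor moved in opposite directions. Pnpla2, which takes the first fatty acid off triglyceride, read 3.88, 3.58 and 3.94 in KO livers, against 3.06, 3.12 and 3.07 in WT livers (probe A_55_P1961039). Every KO array was above every WT array, by at least 0.45, and the WT arrays lay close together. The level averaged 3.80 ± 0.19 in KO and 3.08 ± 0.03 in WT livers (mean ± SD, n = 3 each), a 1.64-fold rise (log2 difference 0.71, SE 0.12, 95% interval 0.41 to 1.02, limma adjusted p = 0.0144). Within slide 1 the difference was 0.49, and with the slide as a block the call was lost at an adjusted p of 0.0513. It was also lost without KO replicate 1 (0.051), KO replicate 3 (0.0675) or WT replicate 3 (0.0755).

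G0s2, which binds the lipase and blocks it, read -0.58, -0.96 and -0.64 in KO livers, against 0.80, 0.16 and 0.71 in WT livers (probe A_52_P681391). The KO arrays were all below the WT arrays, by at least 0.73, with KO replicate 2 the lowest of the KO arrays and WT replicate 2 the lowest of the WT arrays. The level averaged -0.73 ± 0.21 in KO and 0.56 ± 0.35 in WT livers (mean ± SD, n = 3 each). The fall was 2.43-fold (log2 difference -1.28, SE 0.21, 95% interval -1.79 to -0.77, limma adjusted p = 0.0126), with -1.52 within slide 1 and an adjusted p of 0.0402 under the slide block. The call was lost without KO replicate 3 (0.0558) and without WT replicate 3 (0.0655).

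The change of G0s2 minus that of Pnpla2 was -1.99 on the log2 scale. The log2 ratio of the 2 signals lay between -4.58 and -4.45 on the KO arrays and between -2.97 and -2.25 on the WT arrays, without overlap. The pair was chosen because its probes moved apart, so this ratio is a description and has no test. Pnpla3, a lipase and acyltransferase on hepatocyte droplets that is low in lean mouse liver, was not well above background on any array with either probe, A_51_P389265 or A_55_P2025514, and no fold is given.

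The 250 bases before the starts of the lipase and its inhibitor, also from RefSeq on GRCm38.p6, are shown because these genes moved in opposite directions. They lie at chr7:141454938-141455187 on the plus strand for Pnpla2 and chr1:193273189-193273438 on the minus strand for G0s2, with capitals for the motifs named above.
Pnpla2: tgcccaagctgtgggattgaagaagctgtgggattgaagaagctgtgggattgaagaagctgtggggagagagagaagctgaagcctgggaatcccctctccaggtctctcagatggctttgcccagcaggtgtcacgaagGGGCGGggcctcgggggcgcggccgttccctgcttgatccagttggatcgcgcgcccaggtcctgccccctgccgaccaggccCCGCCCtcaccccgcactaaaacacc
G0s2: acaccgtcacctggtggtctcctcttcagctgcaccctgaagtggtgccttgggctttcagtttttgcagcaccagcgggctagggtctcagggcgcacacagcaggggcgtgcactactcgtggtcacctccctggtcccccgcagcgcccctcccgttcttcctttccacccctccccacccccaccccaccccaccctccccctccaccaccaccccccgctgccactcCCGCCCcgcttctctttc
The Pnpla2 window holds the GC box 109 and 26 bases before the start, and the G0s2 window holds it 18 bases before. The GC box is in 32.7% of all windows and in 7 of the 11 windows of the 10 genes. CCAAT is in 33.8% of all windows and in 5 of the 11, among them the Plin4 and Plin5 windows above.

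**Figure D3:**
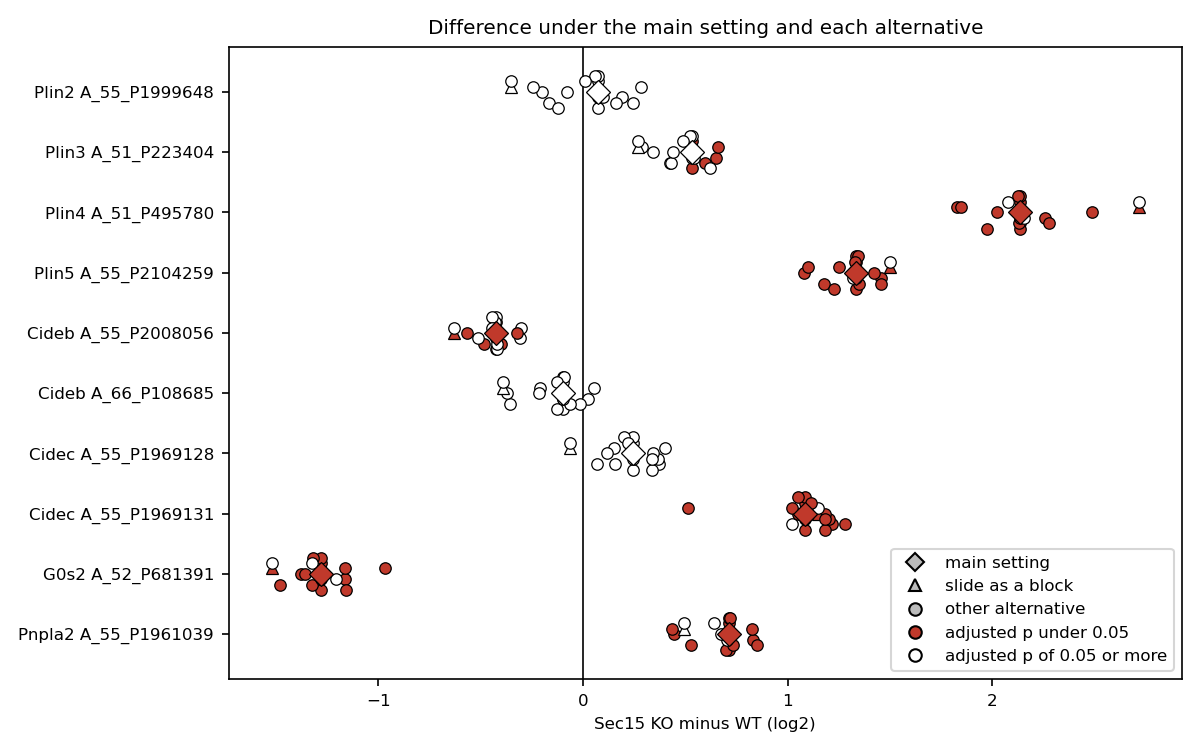
Sec15 KO minus WT on the log2 scale for each tested probe under the reported setting (diamonds) and each alternative, with the slide as a block as triangles and filled red marks where the adjusted p was under 0.05. The points for Plin4, Plin5, Pnpla2 and Cidec probe A_55_P1969131 stay above 0 and those for G0s2 and Cideb probe A_55_P2008056 below 0, while Plin2 lies between -0.35 and 0.29.

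For each gene with a called probe, the 2 other genes most alike by Pearson's r over the 6 arrays were taken, with the gene's brightest probe. The 10 droplet genes and probes without a symbol were left out of this search. These values describe 6 arrays that share the difference between the groups, and each r is the highest or next highest over the genes searched. Plin4 was most like 1110032A03Rik and Gstk1 (r = 0.998 and 0.997), and Plin5 was most like Serinc2 and Slc43a3 (both 0.999). Pnpla2 was most like Pam16 and Mug1 (1.00 and 0.999), and G0s2 most like Poc1b and Barx2 (0.996 and 0.995). For Cidec and Cideb the brightest probes were those not called, and the genes were Pdlim3 and Sertad2 (0.995 and 0.990) and Olfr1535 and Tinf2 (0.998 and 0.997). Likeness among the 10 droplet genes themselves was not measured, since none of them could be among the 12 genes.

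The genes that work with these proteins were counted in 4 lists, each gene by its brightest probe, beside a background of 29.1% of 22834 genes called, 17% higher and 12.1% lower. This background counts each probe target without a symbol as a gene of its own, while the lists hold only genes with a symbol. The 4 lists, with 20, 20, 16 and 14 genes tested, together had 21 genes higher and 4 lower. With the slide as a block they had 6 higher and 2 lower. Under that block 9.34% of all tested probes were called, against 28.6% without it. The 8 list genes called under the block were Ppargc1a, Cebpb, Foxo1, Vldlr, Fabp4 and Slc27a2, higher, and Pnpla1 and Slc27a1, lower. Of 20 lipolysis partners tested, 3 rose and 1 fell, with a median log2 difference of 0.23 against 0.06 over all genes. Lpl, the lipoprotein lipase, rose 3.45-fold and read 2.35, 0.63 and 1.87 in KO livers, against 0.18, -0.51 and -0.18 in WT livers. The KO arrays were the more spread, and within slide 1 the difference was 0.80 and the slide block ended the call (adjusted p = 0.157). The second Lpl probe, A_52_P257812, overlapped between the groups and did not pass (2.23-fold, log2 difference 1.16, adjusted p = 0.0662). Faf2, an adaptor in the turnover of droplet proteins, rose 1.26-fold (log2 difference 0.33, adjusted p = 0.0413), a call lost with the slide as a block (0.0752) and under 12 of 19 alternatives in all. Pnpla1, a skin-type relative of the lipases, fell 1.74-fold (log2 difference -0.80, adjusted p = 0.0135).

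Abhd5, Hilpda, Lipe and Mgll, which act on Pnpla2 or after it in lipolysis, did not pass with their brightest probe. Abhd5, its co-activator, read 2.51, 2.97 and 2.48 in KO livers, against 2.75, 3.23 and 3.39 in WT livers. The groups overlapped (log2 difference -0.47, SE 0.22, adjusted p = 0.148), and its other tested probe gave 0.19. Hilpda, a hypoxia-inducible inhibitor of the lipase, gave 0.43 (SE 0.25, adjusted p = 0.222), and its other probe 0.63 (adjusted p = 0.065). Lipe, the hormone-sensitive lipase that takes the next fatty acid, gave -0.26 (SE 0.25, adjusted p = 0.434). Mgll, which finishes the breakdown, gave 0.30 (SE 0.15, adjusted p = 0.167) with its brightest probe, and 2 of its other 3 probes gave 0.30 and 0.17 (adjusted p = 0.0554 and 0.62). Probe A_55_P2063311 was well above background on no KO array and on all 3 WT arrays and so passed the filter only through the WT arrays. Its signal was at least 2.26-fold lower in KO, a lower bound for which the KO signal is set to the lowest signal well above background or to its own where higher.

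Of 20 genes of droplet formation and surface tested, 7 rose and none fell (limma), with a median of 0.24. At an unadjusted limma p under 0.05 the counts were 8 higher and 2 lower. Over all 27057 tested probes, 12177 had an unadjusted p under 0.05, in either direction. Of the 2 lower genes, Methig1 was well above background on no KO array and on 3 WT arrays, and so passed the filter only through the WT arrays. Hsd17b13, a droplet enzyme of hepatocytes, read 4.31, 4.08 and 4.35 in KO livers, against 3.57, 2.98 and 3.25 in WT livers. The KO arrays were all higher, a 1.97-fold rise (log2 difference 0.98, SE 0.17, adjusted p = 0.0152), while its second probe gave 0.07. Its relative Hsd17b11 rose 1.58-fold, Dgat1, which makes triglyceride, rose 1.45-fold, and Agpat3, an acyltransferase of the same route, rose 1.43-fold. Mettl7a1, Fitm2 and Bscl2, the gene of seipin, were the other 3 that rose. With the slide as a block all 7 calls were lost, at 0.0856 for Hsd17b13, 0.0642 for Dgat1, 0.0785 for Hsd17b11 and 0.0772 for Agpat3. Plin1 gave 0.22 (adjusted p = 0.472).

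Of 16 regulators tested, 6 rose and 1 fell, with a median of 0.10. Ppargc1a, the coactivator of oxidative genes, read 1.94, 1.94 and 1.97 in KO livers, against 0.70, 0.15 and 0.39 in WT livers. The KO arrays were almost level and all above the WT arrays, a 2.90-fold rise (log2 difference 1.54, SE 0.15, adjusted p = 0.00648) that was 1.53 within slide 1. Foxo1, a forkhead factor of fasting, rose 1.73-fold (adjusted p = 0.016) and Cebpb 1.61-fold (adjusted p = 0.00951). Ppard, a fatty acid receptor, fell 1.54-fold (adjusted p = 0.0112), a call lost with the slide as a block (0.0504). Ppara, the fatty acid receptor of hepatocytes, read 4.52, 4.60 and 4.60 in KO livers, against 4.30, 3.45 and 3.91 in WT livers, which did not pass (log2 difference 0.69, SE 0.22, adjusted p = 0.06). Its other probes gave 0.10 and -0.11. Pparg, which drives droplet genes in fatty liver, gave a log2 difference of -0.0033 (SE 0.14, 95% interval -0.33 to 0.33, adjusted p = 0.987).

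Of 14 genes of lipid uptake and of fatty liver tested, 5 rose and 2 fell, with a median of 0.03. Vldlr, a receptor for triglyceride-rich lipoproteins, read 0.76, 0.37 and 0.66 in KO livers, against -2.52, -3.65 and -3.02 in WT livers, a 12.6-fold rise (log2 difference 3.66, and 2.12 with normexp background correction). Fabp4, a fatty acid binding protein of adipocytes and macrophages, read 2.90, 2.44 and 2.82 in KO livers, against 1.07, 1.12 and 1.03 in WT livers. Both had all KO arrays far above the WT arrays, and the calls held under the slide block (adjusted p = 0.027 for Vldlr and 0.0225 for Fabp4). Another Vldlr probe, A_55_P2174836, was well above background on 2 arrays and so was not tested. Slc27a2, a fatty acid transporter, rose 1.55-fold (adjusted p = 0.00862), and its relative Slc27a1 fell 2.46-fold (adjusted p = 0.0105). Acot1 and Cd36 also rose, and the slide block ended both calls.

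**Figure D4:**
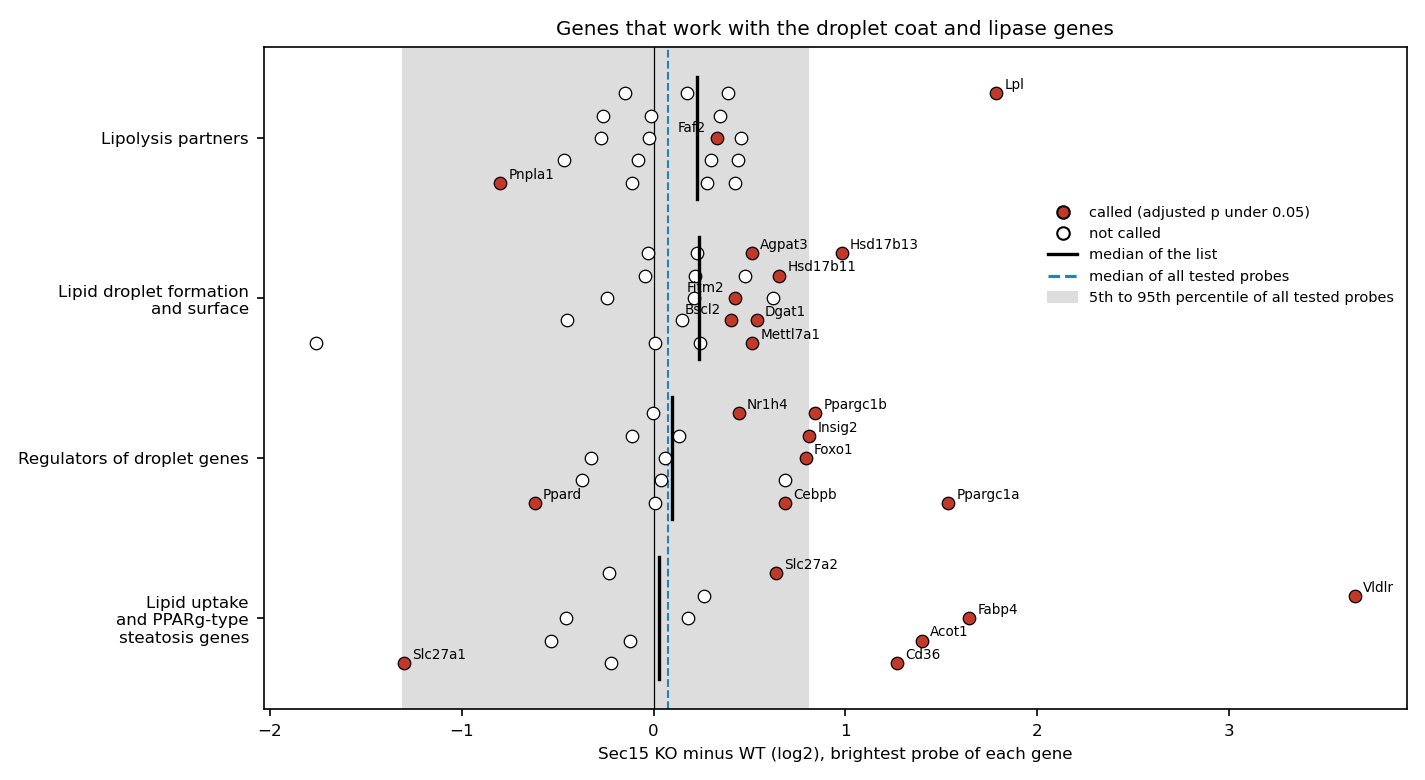
Sec15 KO minus WT on the log2 scale for the brightest probe of each gene shown from the 4 lists, filled where called, with a bar at each list's median, a dashed line at the median of all tested probes and a grey band over their 5th to 95th percentile, -1.30 to 0.81. Vldlr is the farthest point to the right, at 3.66.

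Markers of other cell types that use droplet genes were measured beside these results, and their counts stand beside the 17% of all genes called higher and 12.1% called lower. Of 8 white adipocyte markers tested, Fabp4 and Slc2a4 rose and Cfd and Retn fell, and Adipoq and Lep, which define adipocytes, were well above background on no array. Slc2a4 was well above background on 3 KO arrays and 1 WT array, and Cfd and Retn each on 2 KO and 3 WT arrays. With the slide as a block the calls of Slc2a4 (0.0559) and Retn (0.167) were lost. The summed linear signal of the list, relative to the array's 75th percentile, was 6.76 to 8.52 in KO and 3.59 to 3.81 in WT livers. Without Fabp4, left out after its value was seen, it was 1.05 to 1.34 in KO and 1.49 to 1.77 in WT livers. Of 6 brown adipocyte markers tested Cox7a1 rose and Elovl3, which hepatocytes of male mice also express, fell, and both calls were lost with the slide as a block (0.138 and 0.203). The summed signal was 11.1 to 29.9 in KO and 45.3 to 67.8 in WT livers. This sum mostly follows Elovl3, whose log2 level averaged 4.00 in KO and 5.73 in WT livers. Zic1, the next highest of the list, averaged 0.14 and 0.63. No sum without Elovl3 was taken. Ucp1, the defining gene, was well above background on 2 arrays.

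Of 7 Kupffer cell and macrophage markers tested, Marco (log2 difference 1.76), Cd5l (0.71) and Clec4f (0.53) rose and none fell (limma, with 5 higher and 0 lower at an unadjusted p under 0.05). These counts use the brightest probe of each gene, which for Adgre1 gave 0.40 with overlapping groups. Its other probe, A_55_P2018934, gave -0.83 with all KO arrays below the WT arrays (limma unadjusted p = 0.0437, adjusted p = 0.102). The list summed to 43.5 to 56.1 in KO and 31.9 to 32.2 in WT livers. With the slide as a block these 3 calls were lost, at adjusted p = 0.0588, 0.0587 and 0.231. Of 6 stellate cell markers tested, Colec11, Lrat and Rgs5 rose and Ngfr fell, of which Rgs5 was lost with the slide as a block (0.199), with sums of 7.12 to 7.59 in KO and 6.93 to 7.77 in WT livers. Of 4 striated muscle markers tested Tnnt3 fell, a call lost with the slide as a block (0.142), with sums of 1.15 to 1.64 in KO and 1.75 to 1.82 in WT livers. Of the 10 hepatocyte markers Fgb, Hnf4a, Tat and Serpinc1 rose and none fell (limma, with 4 higher and 0 lower at an unadjusted p under 0.05). The unadjusted counts of the hepatocyte and Kupffer cell lists stand beside 12177 of all 27057 tested probes, in either direction. Fgb kept its call with the slide as a block (0.037), and Hnf4a (0.0938), Tat (0.142) and Serpinc1 (0.112) lost it. Alb read 9.77 ± 0.12 in KO and 9.62 ± 0.11 in WT livers (mean ± SD, n = 3 each). The part of these cell types in the values of the droplet genes was not tested.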

How the data were processed

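Total RNA of liver was measured on 6 one-colour arrays. The deposited intensity of each spot was read out by Agilent Feature Extraction 11.0.1.1, per the file headers, with background subtracted and detrended but no scaling across arrays. Flags mark spots well above background, saturated or outlying. Outlier spots, 178 to 236 an array, were dropped, and none was saturated. The values of 43020 non-control spots were averaged to 39429 probes, turned to log2 and scaled to each array's 75th percentile. Of the probes, 27234 matched 1 symbol through their transcript accession in RefSeq's list of genes of GRCm38.p6, used for names and neighbours, and 12195 matched none.

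Probes well above background on at least 3 of 6 arrays were fitted with limma 3.58.1 (lmFit and eBayes, R 4.3.3, jsonlite 2.0.0, data.table version 1.17.8), with Benjamini-Hochberg adjustment over all 27057 at a threshold of 0.05. The number of arrays limits the precision. The fit was tested on simulated data. Groups came from the labels, and arrays of 1 scan time were taken as a slide. Single values used the exact two-sided permutation test. Genes named were the 10 genes, up to 4 genes with the smallest p per list, and the 2 genes most alike. Genes taken as partners were also named (Abhd5, Lipe, Mgll, Plin1, Hilpda, Ppara, Pparg). Genes outside this rule that are named in counts were named after their values were seen. Some genes that count in the lists are not reported here. The members and lists were chosen with earlier results of these data known.

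The 19 alternatives were quantile, median and cyclic loess normalisation, normexp (offset 50) on median signals followed by quantile normalisation, the filter set to all 6 arrays or removed, trend with robust eBayes, array weights, 1 probe per gene, a replicate block, a slide block, slide 1 alone, WT replicates 1 and 2 averaged, and each array left out.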

Additional observations from a re-analysis of the deposited data

How the results depend on the processing

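The 6 called probes kept their direction in all 19 alternatives that gave them a value (18 for Cidec A_55_P1969131 and Cideb A_55_P2008056, which are not the brightest probe of their gene). Only quantile, median and cyclic loess normalisation and normexp could have turned it. The other settings refit the same levels, on which the KO and WT arrays of these 6 probes do not overlap. The probes called higher, 4 as reported, were 0 on slide 1 alone and 0 to 5 when each array was left out. The probes called lower, 2 as reported, were 1 under median centring, normexp, no filter, 1 probe per gene, the replicate block and with WT replicates 1 and 2 averaged, 0 on slide 1 alone, and 0 to 2 when each array was left out. On slide 1 alone, where the spread of the lone KO array was taken from the WT arrays, limma called 0 probes in either direction, with 7840 probes and 7 of the 10 droplet probes at an unadjusted p under 0.05, against 12177 and 7 with all 6 arrays. The 4 partner lists, with 21 calls higher and 4 lower as reported, gave 37 and 16 with array weights, 6 and 2 with the slide as a block, 0 and 0 on slide 1 alone, 13 higher under the replicate block, 7 lower under cyclic loess, and 3 to 27 and 0 to 5 when each array was left out, the lowest without WT replicate 3 or KO replicate 3. All probes, 4595 higher and 3145 lower as reported, gave 12007 and 9165 with array weights, 1312 and 1214 with the slide as a block, 0 and 0 on slide 1 alone, 2946 higher under cyclic loess, 2932 higher with no filter, and 204 to 6814 and 151 to 5793 when each array was left out, lowest without WT replicate 3 and highest without KO replicate 2. The share of higher calls was 59.4% as reported, 70.1% under median centring and 47.8% under cyclic loess, and the median of all probes was 0.08, 0.19 and -0.00. Values with the opposite sign were found for uncalled probes. For Plin2 they were -0.17 under quantile normalisation, -0.20 under cyclic loess, -0.25 under normexp, -0.35 with the slide as a block and on slide 1 alone, -0.12 to 0.29 when each array was left out, below 0 without WT replicate 1 or KO replicate 1. Cideb A_66_P108685 gave 0.023 under median centring and -0.21 to 0.052 when each array was left out, with the opposite sign without KO replicate 2, and Cidec A_55_P1969128 gave -0.062 with the slide as a block and on slide 1 alone. Mgll gave -0.023 under normexp, and Plin1 gave -0.021 with array weights and -0.020 to 0.35 when each array was left out, the lowest without KO replicate 1. Pparg gave 0.12 under median centring, 0.079 with array weights, 0.0052 with WT replicates 1 and 2 averaged and -0.073 to 0.088 when each array was left out, above 0 without WT replicate 1 or KO replicate 2. The cause of these shifts was not tested. Deviations of same-numbered arrays correlated at 0.10, 0.11 and 0.02, and those of the other KO and WT pairs between -0.11 and 0.04. With 3 arrays in each group these values cannot decide whether the replicate numbers pair the samples. The replicate block gave 5 droplet probes higher and 1 lower, and 3431 higher and 2696 lower over all probes. Cidea and Pnpla3 are limited by signal over background.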
